A study of Mus musculus with 11 samples.

Results

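Synapses are built by adhesion proteins that meet across the cleft, and 43 genes for such synaptic organizers were followed in J-RGCs, ganglion cells of the retina that respond to motion in a preferred direction, with and without the transcription factor Tbr1. The genes were chosen by name, as neurexins, neuroligins, leucine-rich repeat (LRR) organizers, teneurins, cerebellins, LAR-type receptor phosphatases and a few further synaptic adhesion proteins, though with earlier results of these data known. All 43 were among the 24421 genes counted, and 42 of them passed the filter on low counts together with 13957 genes in all, Lrrtm4 being the member that did not. Controls are labelled WT and mutants Tbr1 KO, both on a mixed C57BL/6 and CD1 background at postnatal day 4 to 5, and cells of both genotypes carried a green fluorescent reporter from a transgenic line specific for J-RGCs. Which allele or Cre line made the KO is not stated in the labels. Sorted pools of 100 cells gave 5 control and 6 mutant libraries. The animal was the replicate, with 4 per genotype called a to d, and 1 control animal and 2 mutant animals gave a pair of pools each whose counts were summed.

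Neurexins on the axon side bind neuroligins, LRRTM proteins and secreted cerebellins on the other side of the synapse. LAR-type phosphatases form a parallel presynaptic hub that binds SLITRK, SALM (Lrfn), Il1rapl1 and netrin-G ligand proteins, and teneurins and FLRT proteins share latrophilins as receptors. Ganglion cells of this age refine their dendrites and their connections with amacrine cells in the retina while their axons form synapses in the brain. Such cells can use these proteins at both ends.

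Reads counted over genes ranged from 8609845 to 34718693 per library. Levels are given as CPM, read counts scaled to a common library size by TMM, and levels of different genes are set side by side only as CPM per kb of annotated exon. Values after ± are the SE for a log2 fold change and the SD otherwise. Jam2, which defines the cell type, was at 452 to 619 CPM in controls and at 87.4 to 130 CPM in mutants, and 15 markers of ganglion cells summed to 18812 to 22088 CPM in controls and 19700 to 21446 in mutants. Tbr1 reads remained in all mutants, at 94.2 to 145 CPM against 155 to 193 in controls (log2 fold change -0.50 ± 0.15, SE; edgeR adjusted p = 0.369), and a count over the whole gene does not check the genotype labels. Of 18 photoreceptor markers, 15 were tested, none passed over all genes and 14 had a positive log2 fold change. Their summed level was 87.7 to 382 CPM in controls and 70.1 to 1294 in mutants, highest in mutant animal c, with Opn1mw at 0 throughout, and the exact two-sided permutation p of the mean log2 CPM was 0.171. Summed levels in controls and mutants were 57.6 to 96.6 and 62.0 to 267 CPM for bipolar, 529.5 to 775 and 899 to 1113 for amacrine, 52.8 to 88.7 and 109 to 147 for horizontal (Lhx1 at 0), 344 to 470.2 and 479 to 769 for Müller and progenitor, and 19.7 to 62.4 and 8.84 to 26.0 for non-neural markers (Hbb-bs and Hbb-bt at 0). The amacrine and horizontal sums did not overlap between genotypes and neither did the Müller and progenitor sums. Exact two-sided permutation p of the mean log2 CPM was 0.514, 0.571, 0.286, 0.229 and 0.343 for these lists in that order and 0.143 for the ganglion cell markers, and Clu and Dkk3 of the Müller and progenitor list passed over all genes. The photoreceptor marker mean entered an alternative fit as a covariate. Whether any of these cells had a part in the results was not tested. In bulk pools, fewer cells of a type and less RNA per cell cannot be told apart.

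The control cells expressed most of the organizer families. Control means reached 1 CPM for 41 of the 43 genes, 10 CPM for 31 and 100 CPM for 10. The neuroligin Nlgn3 (X chromosome, 101299168 to 101325963, GRCm38) and Lingo1, an LRR protein of the Nogo receptor complex (chromosome 9, 56618475 to 56796468), led per length, at 45.4 ± 10.7 and 42.3 ± 5.99 CPM per kb (SD, n = 4). Their ranges over control animals overlapped, while the lowest control value of Lingo1, 33.5 CPM per kb, lay above the highest of the next gene, Ntng1, at 21.4. Below this gap no neighbours in the order of control means were separated by their ranges. The order and the gap depend on the length used, here all annotated exon bases of a gene. Lingo2 had 8297 such bases and 3808 in its longest transcript, against 4715 and 3627 for Lingo1.

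**Figure D1:**
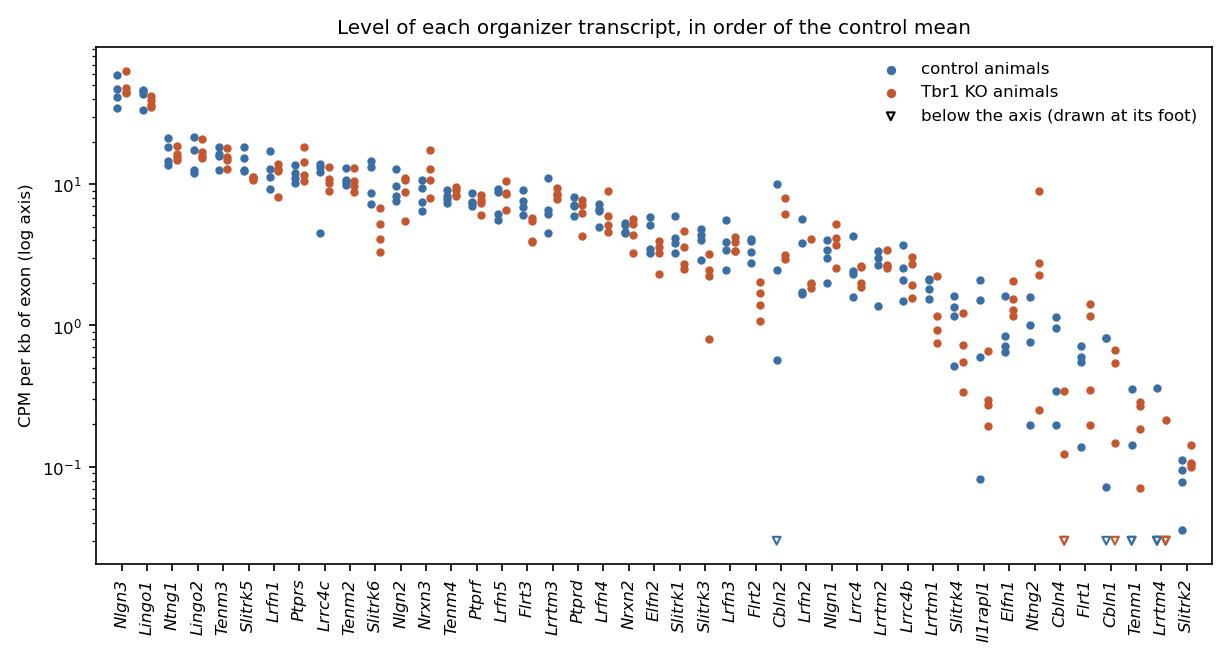
CPM per kb of exon (log axis) of the 43 organizer transcripts in each control and Tbr1 KO animal, ordered by the control mean. Nlgn3 and Lingo1 stand above the rest, and the lowest 8 genes from Elfn1 to Slitrk2 have control means under 1 CPM per kb.

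Within families, a single gene supplied most of the CPM per kb of exon in several cases. Nlgn3 made up 77.5% ± 5.40 of the neuroligin CPM per kb in controls and 79.1% ± 5.80 in mutants (SD, n = 4 each), against 17.1% ± 5.70 and 14.7% ± 4.91 for Nlgn2, a neuroligin of inhibitory synapses, and 5.40% ± 1.47 and 6.21% ± 1.77 for Nlgn1, one of excitatory synapses. Ntng1, a membrane-tethered ligand of Lrrc4c, was 94.8% ± 3.58 of the netrin-G level in controls. Lrrc4c in turn was 65.7% ± 15.9 of the netrin-G ligand family in controls. Lrrtm3 gave 59.1% ± 11.8 of the LRRTM level in controls, and Flrt3 64.4% ± 8.71 of the FLRT level. The teneurins, large transmembrane proteins that match partner neurons in several circuits, were shared more evenly, with Tenm3 at 44.8% ± 3.496, Tenm2 at 31.3% ± 1.28 and Tenm4 at 23.5% ± 4.00 in controls. Tenm1 was at 0.348% ± 0.414. Among the LAR-type phosphatases, Ptprs held 44.3% ± 3.49 in controls, Ptprf 28.9% ± 3.17 and Ptprd 26.8% ± 3.75. Shares and their order depend on the length used, here all annotated exon bases. Ptprd had 22822 such bases and 9899 in its longest transcript, against 9148 and 7656 for Ptprf.

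No organizer gene passed the threshold between genotypes. Of the 42 tested, 0 had a Benjamini-Hochberg adjusted p under 0.05 in the edgeR quasi-likelihood test over all genes, where 0.287% of all tested genes did (0.201% lower and 0.086% higher in mutants). DESeq2 called 2 of the 42, Flrt2 and Slitrk6, both lower, against 1.12% of all genes it tested (0.59% lower and 0.533% higher). With each library as a replicate edgeR called 0 of the 42, against 0.607% of all genes. At an unadjusted edgeR p under 0.05 there were 7 of the 42 (16.7%), against 7.09% of all tested genes. Of these, 5 were lower in mutants (3.7% of all tested genes) and 2 higher (3.4%). The animals of the genotypes did not overlap for 4 of the 42 members (9.52%), all lower in mutants. Of all tested genes, 2.48% did not overlap in that direction, 2.58% in the other and 5.06% in all. The median log2 fold change was -0.05 over the 42 and -0.00071 over all tested genes, with 27 negative and 15 positive values. The 7 genes with an unadjusted p under 0.05 numbered 3 without control animal c, 4 without control animal d and 3 without mutant animal c, where 7.35%, 7.02% and 6.2% of all genes had such a p.

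**Figure D2:**
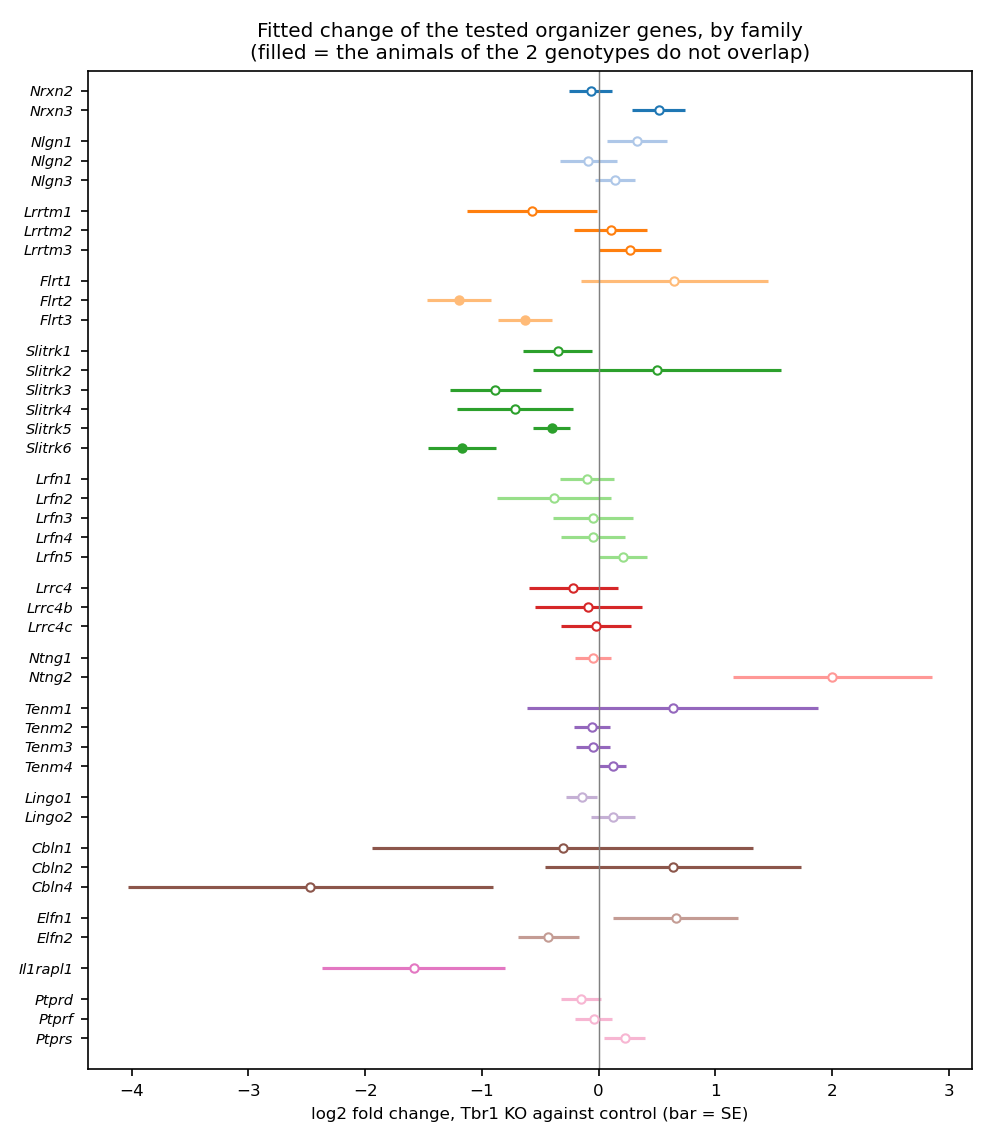
Fitted log2 fold change (x axis, Tbr1 KO against control) with its standard error for the 42 tested organizer genes, grouped and coloured by family. The 4 filled points, Flrt2, Flrt3, Slitrk5 and Slitrk6, are the genes whose animals do not overlap between genotypes, and all 4 lie below 0.

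Of the 3 FLRT genes, none passed over all genes in edgeR, and the animals did not overlap for Flrt2 and Flrt3. FLRT proteins are LRR proteins with a fibronectin domain that bind latrophilins and Unc5 receptors. Flrt2 (chromosome 12, 95692226 to 95785215) was at 30.8, 25.6, 21.5 and 31.5 CPM in control animals a to d and at 13.0, 10.7, 15.6 and 8.37 CPM in mutant animals a to d. Every mutant animal was below every control animal, and the highest mutant, animal c, was at 15.6 against 21.5 in the lowest control. The log2 fold change was -1.20 ± 0.28 (SE), with an unadjusted p of 0.000961 and an adjusted p of 0.158 in the edgeR test, and an adjusted p of 0.0151 in DESeq2. Between the pools of mutant animal a Flrt2 differed from 8.51 to 21.6 CPM, so that the pools taken singly overlapped with the control pool at 19.8 CPM.

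Flrt3 (chromosome 2, 140650914 to 140671469) was at 33.6, 37.1, 44.4 and 29.2 CPM in control animals a to d and at 19.4, 27.9, 26.6 and 19.1 in mutant animals. The groups were adjacent, with mutant animal b at 27.9 just under control animal d at 29.2. The pools taken singly overlapped, since the pools of mutant animal a were at 11.5 and 34.1 CPM and the lowest control pool was at 29.2 CPM. The log2 fold change of Flrt3 was -0.63 ± 0.23 (SE; edgeR unadjusted p = 0.0175, adjusted p = 0.543). Flrt3 lies within Macrod2 on the opposite strand with 0 shared exon bases. Flrt1 was low, at 0.813 to 4.18 CPM in controls and 1.16 to 8.35 in mutants, and had no separation (0.65 ± 0.80). Summed over the family, the level was 10.8 to 12.04 CPM per kb in control animals and 5.20 to 8.29 in mutants.

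SLITRK proteins, postsynaptic LRR ligands of the LAR-type phosphatases, included the other 2 separated genes. Slitrk6 (chromosome 14, 110748580 to 110755149) was at 30.8, 36.8, 61.4 and 56.3 CPM in control animals a to d and at 13.9, 22.02, 17.5 and 28.7 in mutant animals. All mutants were below all controls, with mutant animal d at 28.7 and control animal a at 30.8 the closest pair. The log2 fold change was -1.17 ± 0.29 (SE), with an unadjusted p of 0.00161 and an adjusted p of 0.208 in the edgeR test and an adjusted p of 0.0183 in DESeq2. Taken as single pools, the highest of the 6 mutant pools (28.8 CPM) still lay below the lowest of the 5 control pools (30.6 CPM), which held for no other organizer gene.

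Slitrk5 (chromosome 14, 111675097 to 111683141), the most abundant SLITRK per length, was at 66.5, 65.5, 79.9 and 95.5 CPM in controls and at 59.1, 59.1, 58.0 and 56.2 in mutants. The mutant animals spanned 56.2 to 59.1 CPM, a narrower range than the controls. Its log2 fold change was -0.40 ± 0.16 (SE; edgeR unadjusted p = 0.0275, adjusted p = 0.593). Slitrk3 was at 19.6, 14.1, 21.03 and 23.5 CPM in controls and at 15.5, 11.97, 10.9 and 3.92 in mutants. Here mutant animal a overlapped with control animal b, and mutant animal d was far lower than the other mutants (-0.89 ± 0.39; edgeR unadjusted p = 0.0422, adjusted p = 0.683). Slitrk1 (-0.35 ± 0.29) and Slitrk4 (-0.71 ± 0.50) overlapped between genotypes. Slitrk2 was nearly absent, with 10 to 45 counts per animal. The family sum was 27.9 to 41.9 CPM per kb in control animals and 21.1 to 23.6 in mutants, and Slitrk6 made up 30.7% ± 4.10 of it in controls and 21.5% ± 5.55 in mutants (SD, n = 4 each).

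**Figure D3:**
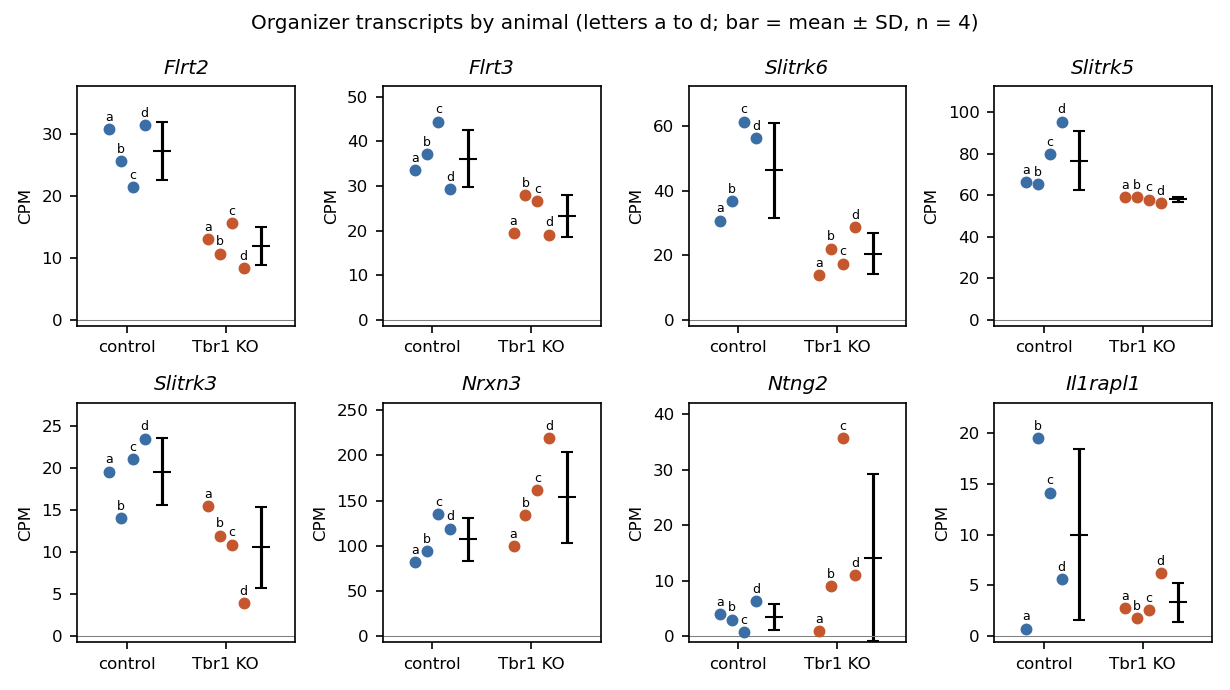
CPM (y axis) of 8 organizer genes in the 4 control and 4 Tbr1 KO animals, marked a to d, with the mean and SD beside each group. Flrt2, Flrt3, Slitrk6 and Slitrk5 show no overlap, while mutant animal d sets the low end of Slitrk3 and the high end of Nrxn3, and mutant animal c the high end of Ntng2.

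**Figure D4:**
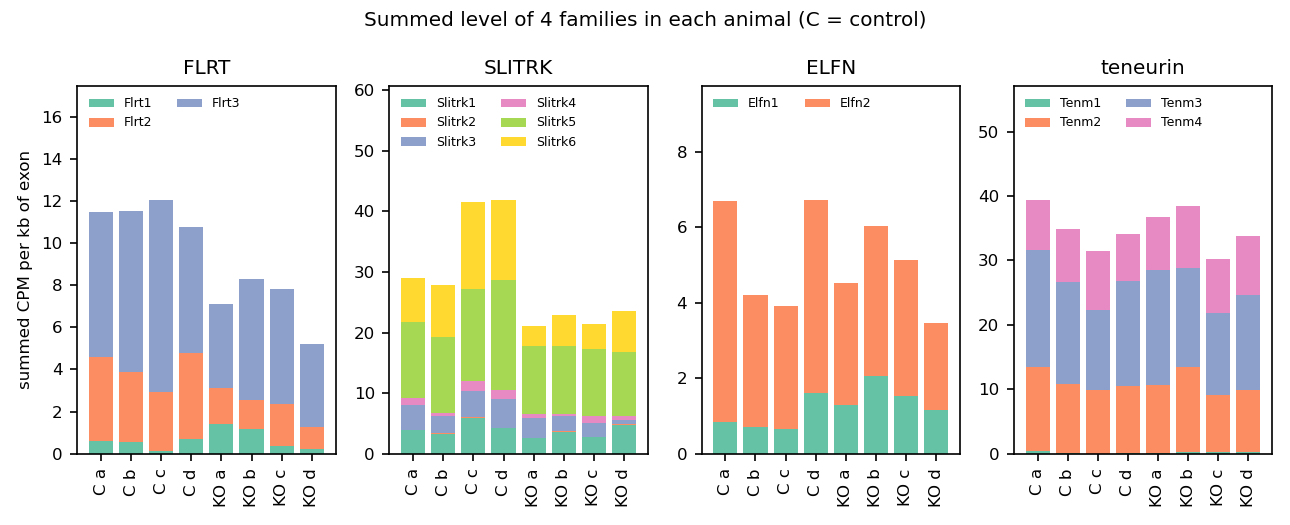
Summed CPM per kb of exon in each animal for the FLRT, SLITRK, ELFN and teneurin families, with each gene a part of the bar. The FLRT bars reach 10.8 to 12.04 in controls and 5.20 to 8.29 in mutants, the SLITRK bars 27.9 to 41.9 and 21.1 to 23.6, and the teneurin bars overlap between genotypes.

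RefSeq windows of 250 bases before to 50 after the annotated start were matched for 33 of the 43 genes, 42 windows in all. Neither the T-box half-site AGGTGTGA nor its shorter form GGTGTGA, searched on both strands with the second contained in the first, occurred in the 42 windows, against 1.28% and 3.98% of all 32851 windows. The palindromic E-box CACGTG, which reads alike on both strands and was picked after the sequences were seen, was in 4 of the 42 windows (9.52%), those of Flrt2, Slitrk6, Lrfn4 and Ptprs, against 7.15% of all windows. The 250 bases before the start are shown for the 2 organizers with the lowest unadjusted p, 5′ to 3′ on the gene's strand (GRCm38.p6), with CACGTG in capitals. The Flrt2 window is chr12:95691976-95692225 on the plus strand and the Slitrk6 window chr14:110755150-110755399 on the minus strand, and the match begins 171 and 208 bases before the start.
Flrt2: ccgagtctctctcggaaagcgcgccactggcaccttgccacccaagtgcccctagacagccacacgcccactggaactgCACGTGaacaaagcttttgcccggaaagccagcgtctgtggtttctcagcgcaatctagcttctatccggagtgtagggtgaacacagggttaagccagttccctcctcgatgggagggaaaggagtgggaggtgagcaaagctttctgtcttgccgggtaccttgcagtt
Slitrk6: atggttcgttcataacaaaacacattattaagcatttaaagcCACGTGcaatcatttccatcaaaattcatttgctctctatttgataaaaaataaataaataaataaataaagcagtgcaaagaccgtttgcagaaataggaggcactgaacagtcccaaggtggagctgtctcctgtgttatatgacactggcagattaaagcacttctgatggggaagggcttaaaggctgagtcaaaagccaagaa

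Of the neurexins, the presynaptic hubs, Nrxn3 (chromosome 12, 88722876 to 90334935) was at 82.0, 94.1, 135 and 119 CPM in control animals a to d and at 100.0, 134, 161 and 219 in mutant animals. Mutant animals c and d were above all controls and the others were not. The log2 fold change was 0.51 ± 0.23 (SE; edgeR unadjusted p = 0.0429, adjusted p = 0.683). It was 0.29 without mutant animal d and 0.16 with the photoreceptor marker mean as a covariate. Nrxn2 overlapped, at 61.8 to 72.7 CPM in controls and 45.3 to 77.9 in mutants. Of the summed CPM per kb of Nrxn2 and Nrxn3, Nrxn2 made up 36.9% ± 7.10 in controls and 28.6% ± 9.38 in mutants (SD, n = 4 each).

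Their postsynaptic partners overlapped between genotypes. Nlgn3 was at 380, 318, 551 and 435 CPM in controls and at 447, 406, 413 and 590 in mutants, with a log2 fold change of 0.14 ± 0.17 (SE; edgeR adjusted p = 0.952). Mutant animal d was the highest of all 8 and control animal b the lowest. Nlgn1 and Nlgn2 gave 0.33 ± 0.26 and -0.09 ± 0.24. Lrrtm3, an LRR neurexin ligand of excitatory synapses, was at 47.3, 26.2, 27.8 and 19.3 CPM in controls and at 36.1, 35.4, 40.1 and 33.5 in mutants, inside the control range (0.27 ± 0.26; edgeR adjusted p = 0.937). Lrrtm2 and Lrrtm1 gave 0.10 ± 0.31 and -0.57 ± 0.56. Lrrtm2 shares 95 exon bases with Ctnna1 on the opposite strand, and Lrrtm1 and Lrrtm3 lie within Ctnna2 and Ctnna3 with 0 shared exon bases. Lrrtm4 had 86 counts in control animal b, 5 in control animal c, 74 in mutant animal b and 0 in the other 5 animals, where 3 counts correspond to 0.0668 to 0.121 CPM. The 86 and the 74 counts each came from 1 pool, with 0 in the other pool of the same animal.

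The cerebellins, secreted proteins that link neurexins to delta-type glutamate receptors, varied widely between animals of 1 genotype. Cbln2 was at 1.65, 0.0259, 29.0 and 7.13 CPM in controls and at 8.51, 17.9, 23.2 and 9.12 in mutants. The controls ran from nearly no reads in animal b to the highest value of all in animal c. The log2 fold change was 0.63 ± 1.10 (SE; edgeR adjusted p = 0.977), and 2.32 without control animal c. Cbln1 was at 0 to 2.47 CPM in controls and 0 to 2.05 in mutants. Cbln4 was at 0.570 to 3.34 CPM in controls and 0 to 1.005 in mutants, where 2 animals had 0 counts. Its log2 fold change was -2.47 ± 1.56 (SE; edgeR adjusted p = 0.853), and -3.94 to -2.06 with 1 animal left out.

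The LAR-type phosphatases, the presynaptic receptors of the SLITRK proteins, overlapped between genotypes. Ptprs was at 179, 152, 205 and 167 CPM in controls and at 156, 175, 213 and 275 in mutants (0.22 ± 0.17; edgeR adjusted p = 0.900). Mutant animals c and d were above all controls. Ptprd and Ptprf gave -0.15 ± 0.17 and -0.04 ± 0.16. Il1rapl1, a postsynaptic ligand of Ptprd, was at 0.766, 19.5, 14.1 and 5.59 CPM in controls and at 2.76, 1.81, 2.55 and 6.21 in mutants. Control animal a, not a mutant, held the lowest value, and the log2 fold change of -1.58 ± 0.79 (SE) had an edgeR unadjusted p of 0.0662 and an adjusted p of 0.755.

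The SALM proteins, further LRR ligands of these phosphatases, gave log2 fold changes from -0.38 ± 0.49 (Lrfn2) to 0.21 ± 0.21 (Lrfn5), with 4 of 5 negative. Lrfn1, the highest of them per length, was at 67.3, 35.9, 44.3 and 50.5 CPM in controls and at 54.1, 48.7, 49.8 and 31.8 in mutants (-0.10 ± 0.23; edgeR adjusted p = 0.982). Its ranges overlapped. Lrfn3 and Lrfn4 were at -0.05 ± 0.34 and -0.04 ± 0.27. The netrin-G ligands Lrrc4, Lrrc4b and Lrrc4c were at -0.22 ± 0.38, -0.09 ± 0.46 and -0.02 ± 0.30. Lrrc4c was at 20.7, 64.6, 61.3 and 56.5 CPM in controls and at 41.4, 61.5, 50.3 and 46.8 in mutants, with control animal a the lowest of all 8 (edgeR adjusted p = 0.998).

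Ntng1, the membrane-tethered partner of Lrrc4c, was at 112 to 176 CPM in controls and 123 to 154 in mutants (-0.05 ± 0.16). Ntng2, the partner of Lrrc4 (chromosome 2, 29194541 to 29253005), was at 4.03, 3.06, 0.784 and 6.31 CPM in controls and at 1.002, 9.06, 35.7 and 11.0016 in mutants. Mutant animal c was far above the rest and mutant animal a was within the control range. The log2 fold change of 2.00 ± 0.85 (SE; edgeR unadjusted p = 0.0366, adjusted p = 0.657) was 0.99 without mutant animal c. Mutant animal c also had the highest summed photoreceptor level, 1294 CPM against 70.1 to 382 CPM in the other animals, and with the photoreceptor marker mean as a covariate the log2 fold change of Ntng2 was -0.11. Ntng2 shares 558 exon bases with the transcript 6530402F18Rik on the same strand.

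The teneurins overlapped between genotypes. Tenm3 was at 186, 162, 128 and 167 CPM in controls and at 183, 159, 131 and 151 in mutants, with a log2 fold change of -0.05 ± 0.15 (SE; edgeR adjusted p = 0.990). Control animal c and mutant animal c were the lowest of their groups. Tenm2 and Tenm4 gave -0.06 ± 0.15 and 0.12 ± 0.12, and Tenm1 had 0 to 283 counts per animal and gave 0.64 ± 1.25. Tenm1 shares 1465 exon bases with Sh2d1a on the opposite strand.

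Lingo1 and Lingo2 gave -0.15 ± 0.13 and 0.12 ± 0.19, at 158 to 218 and 99.5 to 178 CPM in controls. The ELFN proteins recruit presynaptic metabotropic glutamate receptors across the synapse. Elfn1 was at 3.51, 2.98, 2.70 and 6.75 CPM in controls and at 5.37, 8.54, 6.40 and 4.86 in mutants, and Elfn2 at 47.5, 28.4, 26.4 and 41.4 CPM and at 26.4, 32.3, 29.3 and 18.6. Both overlapped between genotypes, with log2 fold changes of 0.66 ± 0.54 and -0.43 ± 0.26 (SE). Their ratio did not overlap, since Elfn1 made up 12.6% to 24.1% of the summed CPM per kb in control animals and 28.4% to 33.9% in mutants. Over the 42 genes in families of 2 or more, the share within the family did not overlap for 6, namely Elfn1, Cbln2, Slitrk2 and Slitrk5 higher and Elfn2 and Cbln4 lower in mutants. No such count over all genes is at hand to set beside these 6. The Slitrk5 share was higher although its own CPM was lower in every mutant animal. The 2 ELFN shares are complements of each other, and the Slitrk2 share rests on few reads. Cbln4 had 0 to 115 counts per animal and Cbln2 1 to 999, and the Cbln2 share ran from 4.36% to 85.5% in controls. No test was made of shares.

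Genes that bind or anchor the organizers came from a list of 76, of which 67 were tested. In this list 1 gene passed over all genes, Magi1, which fell (0.287% of all tested genes passed), and DESeq2 called 4 (1.12% of all genes it tested). At an unadjusted edgeR p under 0.05, 7 were lower and 3 higher in mutants, against 3.7% and 3.4% of all tested genes. The animals did not overlap for 6 lower and 2 higher genes, against 2.48% and 2.58%. The median log2 fold change was -0.07, with 35 negative and 32 positive values.

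Magi1, an inverted membrane-associated guanylate kinase that anchors adhesion proteins (chromosome 6, 93675455 to 94283917), was at 213, 263, 217 and 309 CPM in controls and at 112, 115, 144 and 91.6 in mutants. All mutants lay well below all controls. The log2 fold change was -1.12 ± 0.16 (SE) with an adjusted p of 0.0114 in the edgeR test and 2.67e-08 in DESeq2. Leaving out control animal b raised the edgeR adjusted p to 0.0615. Leaving out mutant animal a gave 0.0552, and leaving out mutant animal b gave 0.0703.

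The Lin7 proteins join Cask and Apba1 in a complex that binds neurexins. Lin7a was at 102, 102, 119 and 99.6 CPM in controls and at 55.7, 73.2, 55.6 and 77.0 in mutants, and Lin7b at 23.0, 27.7, 20.2 and 19.0 CPM and at 10.8, 11.5, 13.9 and 10.1. Neither overlapped between genotypes. Their log2 fold changes were -0.69 ± 0.16 and -0.95 ± 0.26 (SE), with edgeR adjusted p of 0.144 and 0.285 and DESeq2 adjusted p of 0.0114 and 0.0906. With each library as a replicate, which counts pools of the same animal as independent, the edgeR adjusted p of Lin7a was 0.0300. Lin7a passed the threshold in 3 of 19 alternative settings. Lin7b shares 58 exon bases with Mtag2 on the opposite strand. Of the 18 scaffold genes, 13 had negative log2 fold changes, with a median of -0.18.

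Lrrn3 and Lrrn1, neuronal LRR membrane proteins outside the organizer families, were also lower in every mutant animal than in every control animal. Lrrn3 (chromosome 12, 41451668 to 41486431) was at 96.6, 116, 177 and 184 CPM in controls and at 45.9, 79.1, 60.9 and 58.2 in mutants (-1.23 ± 0.23; edgeR adjusted p = 0.0518, DESeq2 adjusted p = 3.45e-05). It lies within Immp2l on the opposite strand with 0 shared exon bases. Lrrn1 was at 84.3 to 126 CPM and at 59.1 to 84.0 CPM (-0.61 ± 0.18; edgeR adjusted p = 0.342), with control animal a and mutant animal d nearly touching.

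Mdga2, a membrane-anchored protein that blocks neuroligins from binding neurexins, was higher in every mutant animal, at 146, 166, 166 and 182 CPM in controls and 231, 253, 223 and 215 in mutants (0.48 ± 0.11; edgeR adjusted p = 0.170, DESeq2 adjusted p = 0.00872). Adam22, the receptor of the secreted LRR protein Lgi1, was at 66.5 to 112 CPM in controls and 127 to 149 in mutants (0.47 ± 0.17; edgeR adjusted p = 0.506). Lingo3, a relative of Lingo1, was at 19.1 to 25.9 and 22.8 to 34.9 CPM (0.55 ± 0.23; edgeR adjusted p = 0.657). Nxph1, a secreted neurexin ligand, was at 3.39 to 12.3 CPM in controls and at 0, 3.37, 0 and 0.564 CPM in mutants. The highest mutant and the lowest control of Nxph1 were nearly equal. Its log2 fold change was -3.12 ± 1.38 (SE; edgeR adjusted p = 0.683), and -5.53 to -2.70 with 1 animal left out. None of the 9 tested heparan sulfate proteoglycans, 3 latrophilins or 3 Unc5 receptors reached an unadjusted edgeR p under 0.05.

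**Figure D5:**
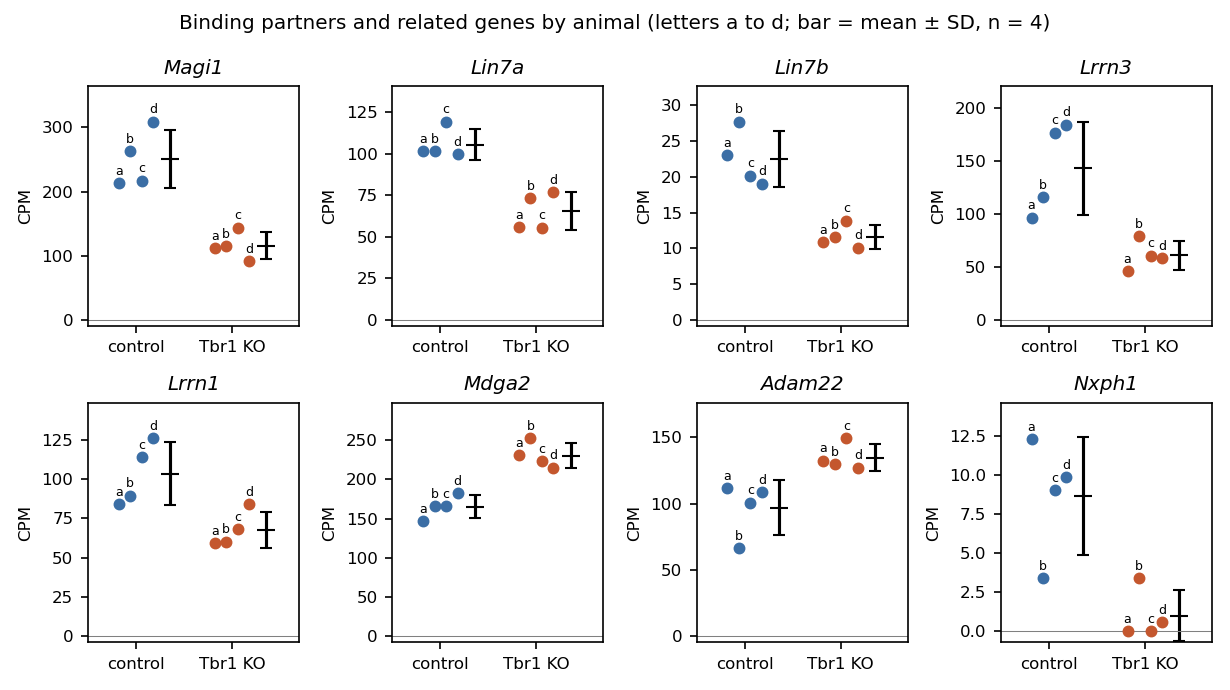
CPM (y axis) of 8 partner and related genes in the 4 control and 4 Tbr1 KO animals, marked a to d, with the mean and SD beside each group. Magi1, Lin7a, Lin7b, Lrrn3 and Lrrn1 lie lower and Mdga2 and Adam22 higher in all mutants, while Nxph1 is at 3.39 in control animal b and 3.37 in mutant animal b.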

How the data were processed

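RNA was sequenced from sorted J-RGC pools, 11 libraries from 8 animals. The authors deposited whole-number counts of reads, listed by gene symbol for each library, for which the submitters' processing notes name Trimmomatic 0.32, TopHat2 2.0.10 and HTSeq 0.6.1 with mm10 (GRCm38). Which annotation was counted, and whether by strand, is not stated in the labels, which limits the values of genes that share exon bases with another gene. Lines that name no gene, 36.1% to 39.9% of the listed reads, stayed out of all totals. Without molecular identifiers, counting floors cover counting error only.

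Counts were summed per animal, filtered with filterByExpr, TMM-scaled and fitted in edgeR 4.0.16 (R 4.3.3; glmQLFit with robust dispersion, then glmQLFTest), with Benjamini-Hochberg adjustment over 13957 genes and a threshold of 0.05. The code was tested on simulated data. The SE is the size of the log2 fold change divided by the square root of F. DESeq2 1.42.0, limma 3.58.1 and other settings were alternatives. Marker lists use the mean log2 CPM with a prior count of 0.5 and an exact permutation test, for which 0.0286 is the smallest p with 4 against 4 animals. Exon lengths are unions over GENCODE M21, and plots were drawn with matplotlib 3.10.9.

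The members, gene lists and marker lists were chosen with earlier results of these data known. Genes given in full are members with an unadjusted p under 0.05 or no overlap between genotypes and the highest member per length of each family of 3 or more, and from the partner list those past the threshold and the next 8 by p. Il1rapl1, Cbln4, Elfn1, Elfn2, Lrrtm4 and the other members named are additions made after their values were seen.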

Additional observations from a re-analysis of the deposited data

Results flagged for a closer look

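Among 104 groups of 4 animals, 7 had an animal set far apart from the other 3 of its genotype, where chance flags about 1 group in 20. Lrrtm4 was at 2.23 CPM in control animal b and 1.33 CPM in mutant animal b, with 0 to 0.145 CPM in the other animals. Both of these high values rest on 1 pool, with 0 counts in the other pool of the animal. Slitrk2 was at 1.16 CPM in mutant animal d. Lrfn2 was at 13.2 CPM in mutant animal b against 5.92 to 6.40 in the other mutants. Lin7a was at 119 CPM in control animal c, Lingo3 at 25.9 CPM in control animal d and Nxph1 at 3.37 CPM in mutant animal b.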

How the results depend on the processing

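The number of organizer genes called over all genes was 0 in all settings but DESeq2 (2) and libraries 1 to 5 with no replicate block (1), the latter added after the data were seen. The number with an unadjusted p under 0.05 was 4 with each library as a replicate, with the replicate block, without it on the same libraries, and with the photoreceptor covariate, and 3 to 6 when 1 animal was left out. Those lower in mutants numbered 3 with the replicate block and 2 to 5 when 1 animal was left out. The median log2 fold change was 0.0503 with the replicate block. The number with no overlap was 1 over single libraries (1.77% of all genes) and 4 to 7 when 1 animal was left out (7.56% to 8.73% of all genes), 7 without control animal b (8.73%). Partner genes called numbered 3 with each library as a replicate, 4 by DESeq2, 2 with limma voom, the replicate block, no replicate block, no filter on low counts, the filter of at least 1 CPM in 4 animals or the photoreceptor covariate, and 0 to 2 when 1 animal was left out. Genes whose sign turned had values near 0, apart from Ntng2 with the photoreceptor covariate (-0.11). Lrfn1 was at 0.0565 and 0.0505 with and without the block, 0.0108 with the covariate, and -0.23 to 0.0857 with 1 animal left out. Lrrc4c was at 0.0367 with limma voom, 0.0668 and 0.0034 with and without the block, and -0.28 to 0.11 with 1 animal left out. Tenm3 was at 0.0170 with the deeper library of each animal, 0.11 with the covariate, and -0.14 to 0.0362 with 1 animal left out. The cause of these changes was not tested. Same-numbered libraries are not stated to be paired, and their deviations correlated at -0.0283 to 0.128, with 1 number of 5 at which both libraries matched their own number best. Pools of 1 animal differed by a median of 0.18 to 0.42 (absolute log2 ratio) over 29 members of at least 10 CPM, which limits what 100 cells resolve.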
